A study of Mus musculus with 12 samples.

Results

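The 54 genes described here are the DNA replication and mitosis genes that were looked up by symbol in the deposited table of 45777 genes: replication factors, cyclins, cyclin-dependent kinases (CDKs) and their inhibitors, and mitotic genes. Each symbol matched 1 row, and all 54 genes were counted in every library, with 380 to 83049 reads per gene and library. RNA was sequenced from CD4+ T cells of the spleen of wild-type Balb/c mice, aged 7 weeks according to the labels, cultured for 3 days with 0.5 ug/mL anti-CD3, an antibody against a subunit of the T-cell receptor complex that sets off activation. The cells were isolated with magnetic beads, and the methods of the study name B6 mice in place of Balb/c, so the strain is uncertain. All 4 groups received anti-CD3, and each had 3 libraries. The control group received nothing else, the next also L. acidophilus (a lactic acid bacterium, heat-inactivated in the study's cell cultures), the next FK506 (tacrolimus, an immunosuppressant that blocks calcineurin) and the last both agents, called the combination. The study states doses of L. acidophilus and FK506 for its splenocyte and alloreactive cultures, and its sequencing methods do not repeat them. It is not stated whether the 3 libraries of a group came from separate mice or cultures, so the p-values measure the spread between these libraries, which may be technical.

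A cell about to replicate its DNA first loads the Mcm helicase onto replication origins with Cdc6 and Cdt1, and in S phase the helicase is switched on by Cdc45, the GINS complex and Mcm10. D-type and E-type cyclins with their CDKs release E2F transcription factors from the Rb proteins, and E2F then drives the genes for DNA synthesis. Genes of mitosis are driven later in the cycle by Mybl2 and Foxm1, and their products build the spindle, hold chromosomes to it and time their separation. Resting T cells express little of this programme, and activation brings them into the cycle.

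Combination-treated cells had lower levels of nearly all of these genes than cells of any other group. Against anti-CD3 alone, 48 of the 54 genes were downregulated and 2 were upregulated, the CDK inhibitors Cdkn1b and Cdkn2c, at a Benjamini-Hochberg adjusted p under 0.05 in edgeR's quasi-likelihood test. Over all 23585 genes tested, 43.3% were called in this comparison, 21.8% as lower and 21.5% as higher. The median log2 fold change of the 54 genes was -0.98, against 0.02 over all genes tested. At least 2-fold, 26 of the genes were lower and 2 were higher, where 10.8% and 13.8% of all genes tested were. The largest falls were those of Gins2, Mybl2, Ccne1, Cdkn1a and Cdc6, of which Gins2 led only with anti-CD3 library 2 included (-2.07, and -1.47 without it), and the 4 genes not called were Mki67, Kif11, Cenpe and Cenpf, all of mitosis.

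With L. acidophilus alone, 0 of the 54 genes passed the same test, where 0.229% of all genes did, 0.0509% as lower and 0.178% as higher. Unadjusted, 10 of them had a p under 0.05, and DESeq2 called 3: Pold1 with a log2 fold change of -0.49, Ccnd3 with -0.69 and Cdkn2c with 0.54. With FK506 alone, 8 of the 54 genes passed, 7 lower and 1 higher, where 19.0% of all genes were called. The summed reads of the 54 genes made up 1.04% to 1.23% of all reads in the 9 libraries without the combination. In the combination libraries 1 to 3 they made up 0.610%, 0.795% and 0.798%. All 3 combination libraries thus lay below all the others. In bulk samples such as these, fewer cycling cells and less of each transcript per cell cannot be told apart.

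**Figure D1:**
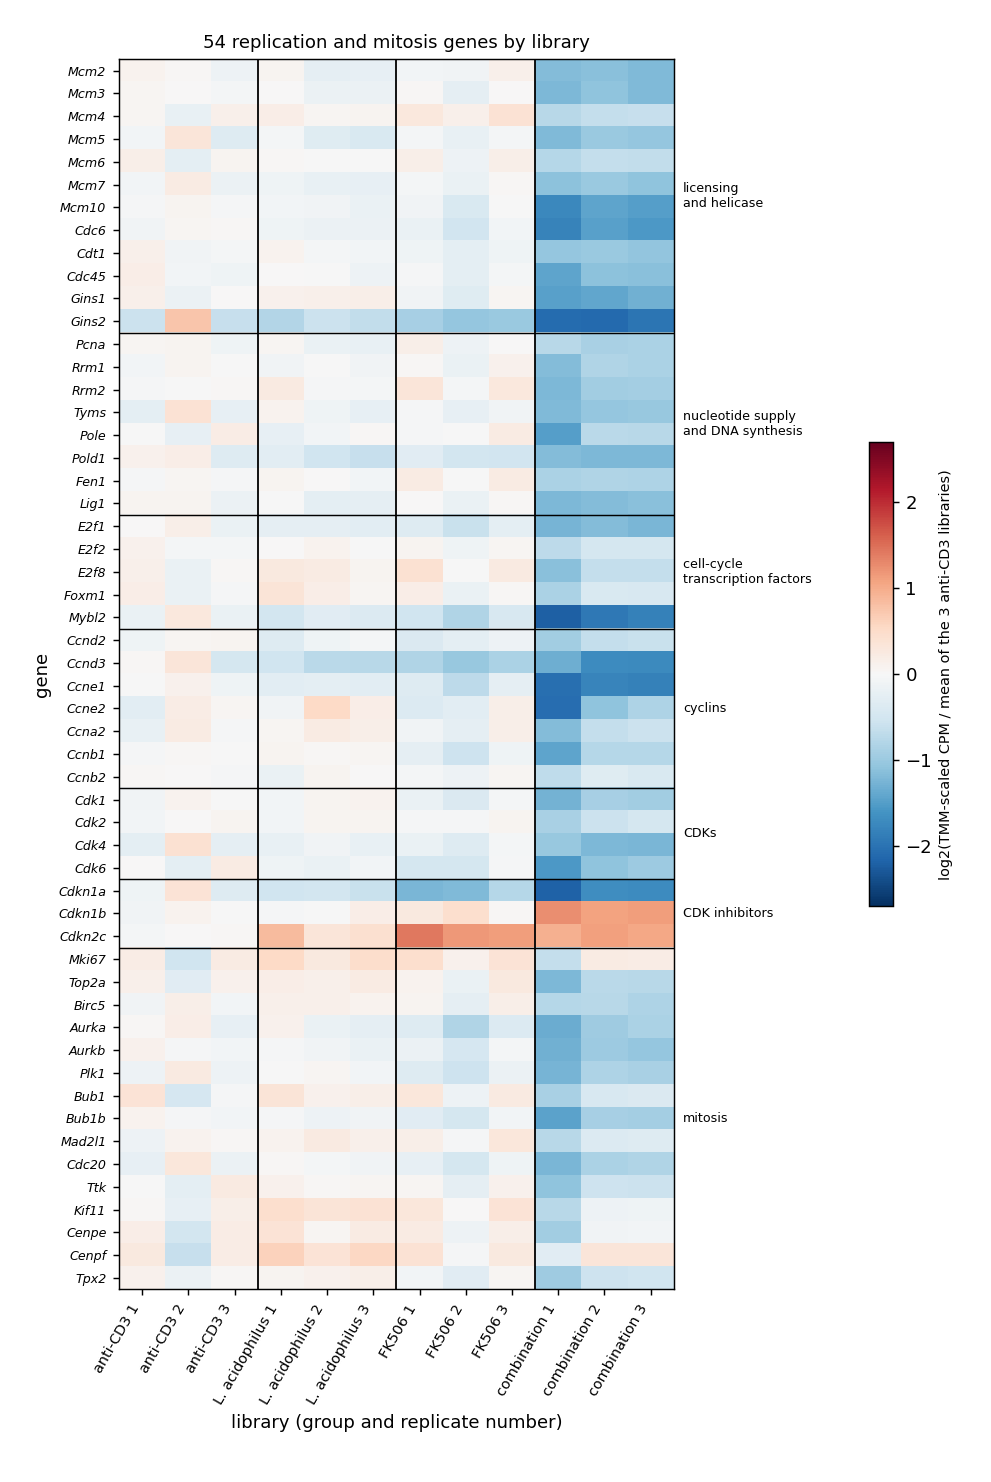
Heat map of the 54 genes (vertical axis, grouped by role) in the 12 libraries (horizontal axis, group and replicate number), with colour giving the log2 ratio of TMM-scaled CPM (counts scaled to library size) to the mean of the 3 anti-CD3 libraries. The combination columns are blue for nearly all genes except Cdkn1b and Cdkn2c, with a median log2 ratio of -1.17, -0.86 and -0.86 in libraries 1 to 3.

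The libraries held 45416397 to 64658165 reads in total, and replicate 1 of each group was the deepest. Any 2 libraries of a group differed by more than sampling noise, so none repeated the reads of another, and each was counted as 1 replicate. This check cannot tell technical repeats of a sample from separate samples. The chi-square per degree of freedom was 4.61 between combination libraries 2 and 3 and 9.57 between L. acidophilus libraries 2 and 3, against 47.7 to 205 for the other pairs of a group, so these 2 pairs were far more alike. Anti-CD3 library 2 had the highest FPKM total, 486334, against 380445 to 433363 in the others. In FPKM, replicate 1 of the combination had the lowest level of its group for 47 of the 51 genes that are not CDK inhibitors. In the FK506 group, replicate 2 had the lowest FPKM for 46 of 51. On TMM-scaled CPM, 51 of 51 of these genes were lower in combination library 1 than in anti-CD3 library 1. For libraries 2 it was 46 of 51 and for libraries 3 50 of 51. The median log2 ratios were -1.17, -0.90 and -0.83, where those of all genes tested were 0, 0 and 2e-04. Libraries were matched here by replicate number, and the check for pairing given below had correlations of 0.0640, -0.166 and 0.370 for this comparison. With replicate 1 left out of every group, an alternative chosen after the data were seen, 46 genes were called lower and 2 higher with the combination. With single libraries left out, Bub1 was the 1 gene not called in all 12 fits (called in 6). Without scaling factors the median of all genes tested moved by 0.205 in the combination against anti-CD3 and by 0.131 against L. acidophilus. Under that setting, 44 and 48 of the 54 genes were called lower.

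Promoter sequences are shown for 5 of the genes because replication genes and mitosis genes are commonly read through different promoter letters: E2F letters (TTTGGCGC, TTTCCCGC, TTTCGCGC or TTTGCCGC) in the first, and the cell-cycle homology region, CHR (TTTGAA or TTCGAA), with CCAAT boxes in the second. Windows of 300 bases (250 before to 50 after the start site) were found for 44 of the 54 genes in RefSeq's annotation of GRCm38.p6, and both strands were searched. E2F letters were in 8 of 16 replication genes and 0 of 13 mitosis genes, where 4.38% of 12389 protein-coding genes held them. CHR letters were in 10 of 13 mitosis genes and 4 of 16 replication genes, against 17.2% of all genes. CCAAT was in 11 of 13 mitosis genes and 10 of 16 replication genes, against 42.5%. None of the 3 CDK inhibitors held E2F or CHR letters in these windows, and 2 of 3 held CCAAT. A match describes letters only, not a bound site.

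The 250 bases before the start site are given 5′ to 3′ on the gene's strand, with matches in capitals: Mcm6 (helicase subunit, minus strand, chr1:128359706-128359955), Cdk1 (mitotic kinase, minus strand, chr10:69352913-69353162), Top2a (DNA topoisomerase, minus strand, chr11:99024190-99024439), Mki67 (Ki-67, minus strand, chr7:135716380-135716629) and Cdkn1b (CDK inhibitor, plus strand, chr6:134920151-134920400).
Mcm6: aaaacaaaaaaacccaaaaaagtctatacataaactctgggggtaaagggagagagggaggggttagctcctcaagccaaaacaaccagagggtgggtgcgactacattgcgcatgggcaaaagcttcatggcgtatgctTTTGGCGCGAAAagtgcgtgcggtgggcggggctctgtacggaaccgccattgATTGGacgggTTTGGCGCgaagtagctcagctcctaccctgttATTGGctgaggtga
Cdk1: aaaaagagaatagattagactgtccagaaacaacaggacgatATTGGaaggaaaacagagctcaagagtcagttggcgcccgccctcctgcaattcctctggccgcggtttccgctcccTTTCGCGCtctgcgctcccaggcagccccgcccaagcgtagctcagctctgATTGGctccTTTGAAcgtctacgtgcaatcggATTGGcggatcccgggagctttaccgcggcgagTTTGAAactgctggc
Top2a: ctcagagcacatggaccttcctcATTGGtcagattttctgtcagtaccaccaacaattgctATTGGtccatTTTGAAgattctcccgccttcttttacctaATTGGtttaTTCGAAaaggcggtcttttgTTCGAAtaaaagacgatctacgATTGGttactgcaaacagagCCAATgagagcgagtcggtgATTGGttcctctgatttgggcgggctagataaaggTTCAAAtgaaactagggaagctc
Mki67: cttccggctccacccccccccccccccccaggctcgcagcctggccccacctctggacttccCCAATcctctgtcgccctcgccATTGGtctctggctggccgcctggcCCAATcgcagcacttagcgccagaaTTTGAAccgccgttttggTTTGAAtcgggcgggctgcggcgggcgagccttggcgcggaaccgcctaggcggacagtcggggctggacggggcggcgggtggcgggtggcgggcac
Cdkn1b: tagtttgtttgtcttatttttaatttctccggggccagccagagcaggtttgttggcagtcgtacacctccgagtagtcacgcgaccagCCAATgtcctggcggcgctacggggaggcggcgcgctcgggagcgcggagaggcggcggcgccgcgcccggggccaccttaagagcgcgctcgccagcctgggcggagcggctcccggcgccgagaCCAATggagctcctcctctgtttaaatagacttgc
Mcm6 holds 3 E2F matches, 2 of them overlapping and on opposite strands at 110 and 106 bases before the start site, and no CHR match. Cdk1 holds 1 E2F match and 2 CHR matches, and Top2a and Mki67 hold no E2F match but 4 and 2 CHR matches. Cdkn1b holds 2 CCAAT boxes and neither of the other letters. The annotated genes Mki67 and Top2a reach to positions 135716450 and 99024199, so part of each of these windows lies within the gene. Mki67 and Top2a share CHR and CCAAT letters, and with the combination Top2a was called as lower and Mki67 was not called. Their values are given below among the mitosis genes, and the 2 genes were not compared by a test.

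All 12 genes of origin licensing and the replicative helicase were downregulated by the combination against anti-CD3 alone, with a median log2 fold change of -1.18. Gins2, a GINS subunit, fell the most: it was 32.9, 81.4 and 34.1 FPKM with anti-CD3 alone, 30.6, 34.8 and 32.8 with L. acidophilus, 28.8, 26.2 and 26.0 with FK506 and 13.1, 13.4 and 14.7 with the combination. Anti-CD3 library 2 stood apart at 81.4 FPKM, and the combination lay below all other libraries. Its log2 fold change was -2.07 ± 0.30 (edgeR adjusted p = 1.92e-04), and -1.47 without anti-CD3 replicate 2. Cdc6, the loader of the helicase, was 15.6, 17.0 and 18.3 FPKM with anti-CD3 alone, 17.1, 16.1 and 16.1 with L. acidophilus, 19.9, 13.1 and 17.1 with FK506 and 5.35, 7.20 and 6.95 with the combination. The combination did not overlap with any other group, and Cdc6 fell by 1.62 on the log2 scale (SE 0.13, adjusted p = 7.83e-06), to 6.50 ± 1.00 FPKM (SD, n = 3) from 17.0 ± 1.32. Mcm10, which helps to activate the helicase, was 21.2, 18.9 and 21.7 FPKM with anti-CD3 alone, 22.1, 22.4 and 21.4 with L. acidophilus, 22.7, 14.9 and 19.3 with FK506 and 7.13, 9.86 and 9.14 with the combination. FK506 library 2 was the lowest outside the combination group, and Mcm10 was 2.97-fold lower with the combination than with anti-CD3 alone. Gins1, another GINS subunit, was 16.9, 13.6 and 16.5 FPKM with anti-CD3 alone, 17.8, 18.2 and 18.3 with L. acidophilus, 15.9, 13.5 and 17.0 with FK506 and 6.24, 6.84 and 7.46 with the combination. The combination again lay lowest, and the log2 fold change of Gins1 was -1.41 ± 0.13.

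The other 8 genes of this role fell by less and in the same direction. Among the helicase subunits, Mcm3 was 115, 112 and 115 FPKM with anti-CD3 alone, 122, 107 and 106 with L. acidophilus, 127, 104 and 120.3 with FK506 and 54.5, 61.5 and 58.2 with the combination. It was 2.26-fold lower in the combination than in controls. Mcm2 (-1.18), Mcm5 (-1.09) and Mcm7 (-1.08) had log2 fold changes close to that of Mcm3, -1.18. Mcm4 and Mcm6, subunits of the same ring, had smaller values, -0.69 ± 0.11 and -0.71 ± 0.12. Anti-CD3 library 2 was the highest of its group for Mcm5 (137 FPKM) and the lowest for Mcm4 (62.9) and Mcm6 (80.7). With single libraries left out, Mcm5 ran from -1.24 to -0.89, Mcm4 from -0.78 to -0.62 and Mcm6 from -0.82 to -0.63. The subunits were not compared with each other by a test. Cdc45, the helicase activator, fell from 35.4 ± 3.30 to 17.6 ± 2.60 FPKM, and the loading factor Cdt1 from 37.0 ± 3.17 to 20.5 ± 0.609 (SD, n = 3).

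All 8 genes of nucleotide supply and DNA synthesis were downregulated by the combination, with a median log2 fold change of -0.997. Pold1, the catalytic subunit of DNA polymerase delta, was 50.5, 52.1 and 39.1 FPKM with anti-CD3 alone, 40.6, 34.2 and 31.8 with L. acidophilus, 41.5, 36.2 and 34.7 with FK506 and 23.3, 23.6 and 23.7 with the combination. The single-treatment libraries ran from 31.8 to 41.5 FPKM, overlapping with anti-CD3 library 3 and lying above the combination, and its log2 fold change with the combination was -1.21 ± 0.14 (edgeR adjusted p = 5.13e-05). Lig1, the ligase that joins newly made fragments, was 72.0, 72.0 and 65.9 FPKM with anti-CD3 alone, 73.3, 61.2 and 62.2 with L. acidophilus, 76.8, 66.4 and 74.7 with FK506 and 33.7, 35.6 and 37.2 with the combination. It was, with the combination, 2.28-fold lower than with anti-CD3 alone. Tyms, thymidylate synthase, was 16.8, 26.4 and 20.9 FPKM with anti-CD3 alone, 26.7, 20.3 and 19.0 with L. acidophilus, 25.0, 20.5 and 24.4 with FK506 and 10.2, 14.4 and 13.6 with the combination. Anti-CD3 library 1 was its lowest outside the combination group, and the log2 fold change was -1.10 ± 0.16. Rrm2, the regulated subunit of ribonucleotide reductase, was 112, 113 and 125 FPKM with anti-CD3 alone, 145, 120.4 and 119 with L. acidophilus, 158, 121 and 149.6 with FK506 and 56.1, 70.4 and 71.8 with the combination. FK506 library 1 was the highest, and the log2 fold change of Rrm2 was -1.03 ± 0.13.

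The sliding clamp Pcna was the most abundant of the 54 genes per length with anti-CD3 alone, 284 ± 9.28 FPKM (SD, n = 3), and had 183 ± 4.81 FPKM with the combination. Rrm1, the large subunit of ribonucleotide reductase, fell from 88.2 ± 5.48 to 52.5 ± 7.88 FPKM, and Pole, the catalytic subunit of polymerase epsilon, from 17.5 ± 3.27 to 10.3 ± 2.98. Fen1, the flap nuclease, had the smallest standard error of the role and a log2 fold change of -0.86 ± 0.09. Against FK506 alone, the combination's Rrm2 and Fen1 fell by 1.20 and 0.99 on the log2 scale.

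The 5 cell-cycle transcription factors were all downregulated by the combination, with log2 fold changes from -1.996 to -0.57. Mybl2 (B-Myb), which drives genes of mitosis, was 25.7, 35.5 and 27.6 FPKM with anti-CD3 alone, 22.1, 25.2 and 24.3 with L. acidophilus, 22.5, 18.5 and 22.9 with FK506 and 7.14, 8.98 and 9.66 with the combination. It was 3.99-fold lower with the combination than with anti-CD3 alone (edgeR adjusted p = 8.18e-06). E2f1, an activating E2F, was 17.0, 18.5 and 15.8 FPKM with anti-CD3 alone, 15.3, 15.1 and 14.7 with L. acidophilus, 14.6, 12.2 and 15.1 with FK506 and 8.04, 8.69 and 8.45 with the combination. It stood at -0.41 with FK506 and -1.24 with the combination on the log2 scale, both called. The FK506 call was lost in edgeR without scaling factors (adjusted p = 0.0659), with the 2 groups alone (0.124) and with replicates 2 and 3 only (0.112). It was also lost with limma (adjusted p = 0.0507 and 0.0536). E2f8, a repressive E2F, was 16.7, 13.1 and 16.3 FPKM with anti-CD3 alone, 19.8, 18.9 and 17.0 with L. acidophilus, 22.2, 16.5 and 19.3 with FK506 and 7.91, 11.3 and 11.5 with the combination, and fell by 0.81. Foxm1, the other driver of mitosis genes, was 23.8, 18.3 and 22.1 FPKM with anti-CD3 alone, 28.8, 25.5 and 23.2 with L. acidophilus, 26.1, 20.3 and 23.1 with FK506 and 13.1, 18.4 and 18.5 with the combination. In FPKM, but not on TMM-scaled CPM, its anti-CD3 library 2 lay below combination libraries 2 and 3, and its log2 fold change was -0.57 ± 0.15 (adjusted p = 0.00805). The call was lost without scaling factors (-0.36, adjusted p = 0.083), with limma on FPKM (-0.35 and -0.37, adjusted p = 0.0861 and 0.0807) and with replicates 2 and 3 only (-0.34, adjusted p = 0.0545). E2f2, also an activator, was lower by about as much, -0.57 ± 0.10, and the combination did not overlap with any other group.

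**Figure D2:**
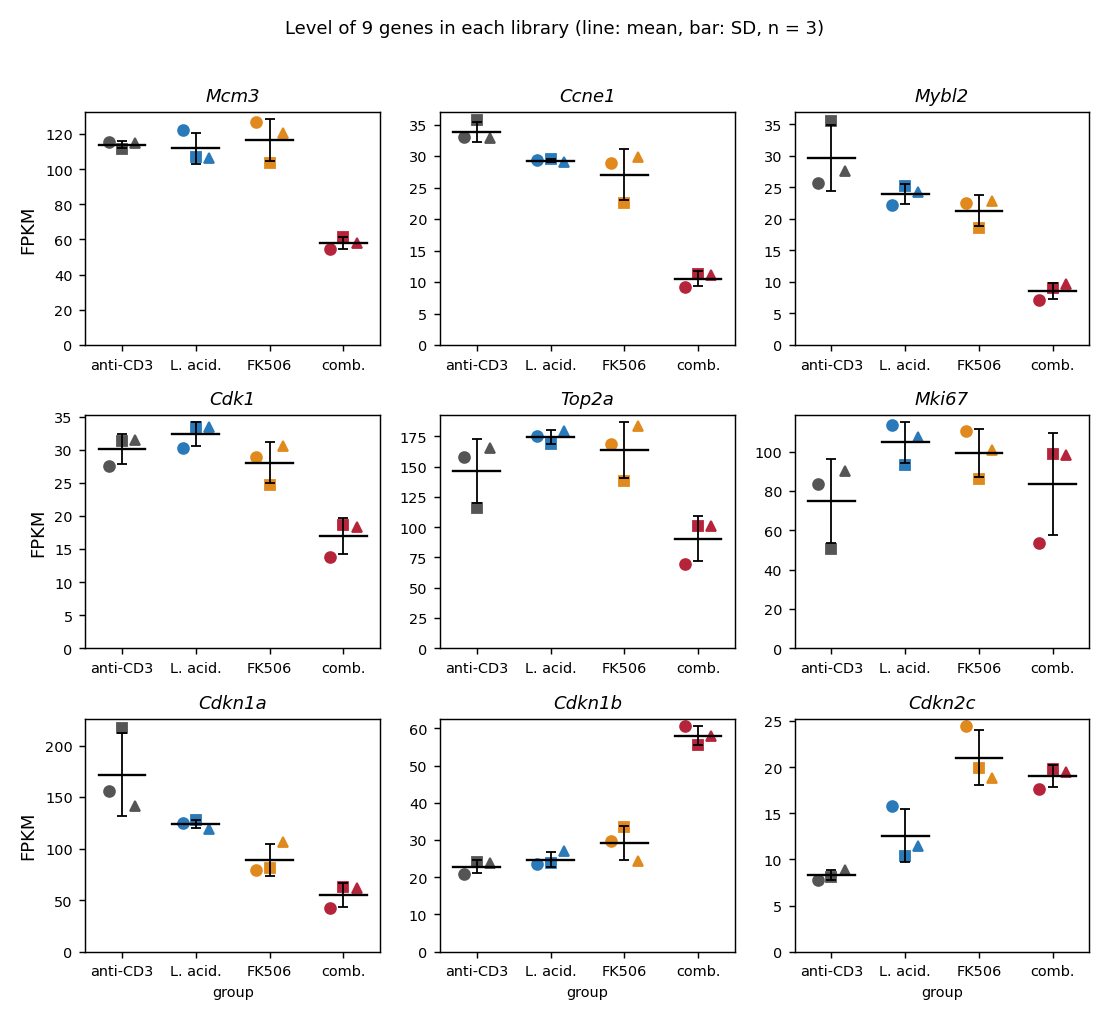
FPKM (vertical axis, from 0) of 9 of the genes in each library of the 4 groups (horizontal axis), with circles, squares and triangles for replicates 1, 2 and 3, a line for the mean and a bar for the SD (n = 3). Mcm3, Ccne1, Mybl2, Cdk1, Top2a and Cdkn1a are lowest with the combination, Cdkn1b is highest there (55.6 to 60.6 FPKM), Cdkn2c is high with FK506 and with the combination, and the 3 combination libraries of Mki67 spread from 53.7 to 98.9 FPKM.

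All 7 cyclins were downregulated by the combination, with a median log2 fold change of -0.97. Ccne1, cyclin E1, which starts S phase with Cdk2, was 33.0, 35.7 and 32.8 FPKM with anti-CD3 alone, 29.3, 29.5 and 29.0 with L. acidophilus, 28.9, 22.5 and 29.9 with FK506 and 9.22, 11.3 and 11.1 with the combination. It was 3.71-fold lower than with anti-CD3 alone, with the lowest adjusted p of the 54 genes, 5.90e-06 in edgeR. Ccnd3, a D-type cyclin that acts with Cdk4 and Cdk6, was 174, 212 and 130.2 FPKM with anti-CD3 alone, 125, 109 and 108 with L. acidophilus, 107, 91.5 and 101 with FK506 and 76.0, 60.8 and 60.7 with the combination. No 2 groups overlapped: Ccnd3 was highest with anti-CD3 alone, then with L. acidophilus (not called), then FK506, and the combination was 3.01-fold below anti-CD3 alone. Ccne2, cyclin E2, was 6.99, 9.82 and 9.67 FPKM with anti-CD3 alone, 8.65, 13.4 and 10.3 with L. acidophilus, 7.51, 7.66 and 10.5 with FK506 and 2.33, 4.74 and 5.76 with the combination. Combination library 1 was the lowest of all, and the log2 fold change was -1.26 ± 0.28. Ccnb1, cyclin B1, which acts with Cdk1 at entry to mitosis, was 56.0, 58.3 and 61.1 FPKM with anti-CD3 alone, 64.7, 62.8 and 63.7 with L. acidophilus, 53.5, 43.0 and 56.9 with FK506 and 24.1, 39.4 and 39.9 with the combination. FK506 library 2 was nearest to the combination, and the change of Ccnb1 was -0.97 ± 0.16. The S phase and mitotic cyclin Ccna2 (-0.79 ± 0.17), the D-type cyclin Ccnd2 (-0.74 ± 0.12) and Ccnb2 (-0.48 ± 0.11) fell by less. The call of Ccnb2 was lost without scaling factors (-0.27, adjusted p = 0.0789) and with limma (adjusted p = 0.0518 and 0.0547).

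All 4 CDKs were downregulated by the combination. Cdk6, a kinase for D-type cyclins, was 25.1, 20.9 and 31.3 FPKM with anti-CD3 alone, 25.0, 23.6 and 25.7 with L. acidophilus, 20.05, 19.9 and 26.3 with FK506 and 9.67, 14.0 and 15.1 with the combination. It had the largest change of the 4, -1.21 ± 0.17 on the log2 scale (edgeR adjusted p = 1.93e-04). Cdk4, its close relative, was 153, 242 and 166 FPKM with anti-CD3 alone, 173, 184 and 171 with L. acidophilus, 180.2, 159 and 189.8 with FK506 and 102, 93.7 and 92.7 with the combination. Anti-CD3 library 2 stood above the others, and the combination libraries lay below every other library. Cdk1, the kinase of mitosis, was 27.6, 31.4 and 31.4 FPKM with anti-CD3 alone, 30.3, 33.4 and 33.5 with L. acidophilus, 28.9, 24.6 and 30.6 with FK506 and 13.9, 18.7 and 18.3 with the combination, and was 2.05-fold lower with the combination. Cdk2, the kinase of S phase, was 38.6, 40.1 and 45.2 FPKM with anti-CD3 alone, 41.5, 45.2 and 45.7 with L. acidophilus, 43.5, 43.1 and 45.7 with FK506 and 24.6, 31.5 and 34.2 with the combination, and fell the least, by 0.66 on the log2 scale.

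The 3 CDK inhibitors did not move together. Cdkn1b (p27), which holds cyclin E and Cdk2 in check and is high in resting T cells, was 20.9, 24.0 and 23.7 FPKM with anti-CD3 alone, 23.6, 23.7 and 26.9 with L. acidophilus, 29.6, 33.6 and 24.4 with FK506 and 60.6, 55.6 and 57.9 with the combination. All 3 combination libraries lay above all the others, and Cdkn1b rose by 1.14 ± 0.12 (log2) over anti-CD3 alone (edgeR adjusted p = 2.24e-05). With FK506 its log2 fold change was 0.24 ± 0.11 and was not called. Cdkn2c (p18), an inhibitor of Cdk4 and Cdk6, was 7.80, 8.13 and 8.87 FPKM with anti-CD3 alone, 15.8, 10.4 and 11.5 with L. acidophilus, 24.4, 19.9 and 18.8 with FK506 and 17.6, 19.9 and 19.5 with the combination. It rose with FK506 by 1.23 ± 0.14 and with the combination by 1.02 ± 0.14, and the difference between FK506 and the combination did not pass the test (-0.21 ± 0.14, adjusted p = 0.34). Cdkn1a (p21), a p53 target that also accompanies T-cell activation, was 156, 217 and 141 FPKM with anti-CD3 alone, 125, 127 and 119 with L. acidophilus, 79.3, 81.0 and 106 with FK506 and 42.0, 62.3 and 61.8 with the combination. It fell with FK506 by 1.07 and with the combination by 1.85 on the log2 scale, in the direction of the cyclins and CDKs.

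Of the 15 mitosis genes, 11 were downregulated by the combination and 4 did not pass the test, with a median log2 fold change of -0.74. Aurkb, the kinase of the chromosomal passenger complex, was 59.0, 53.2 and 55.0 FPKM with anti-CD3 alone, 57.9, 54.8 and 51.6 with L. acidophilus, 54.2, 44.1 and 56.6 with FK506 and 25.2, 32.4 and 31.4 with the combination. It was 2.18-fold lower than with anti-CD3 alone (edgeR adjusted p = 3.18e-05). Bub1b, a spindle checkpoint protein, was 45.0, 41.4 and 43.2 FPKM with anti-CD3 alone, 44.5, 41.3 and 42.5 with L. acidophilus, 37.7, 33.5 and 42.9 with FK506 and 17.6, 26.7 and 26.4 with the combination, with a log2 fold change of -1.08 ± 0.15. Aurka, the spindle-pole kinase, was 42.5, 47.1 and 38.5 FPKM with anti-CD3 alone, 48.8, 40.0 and 38.0 with L. acidophilus, 36.5, 26.0 and 34.8 with FK506 and 18.7, 25.1 and 27.3 with the combination. In FPKM, FK506 library 2 lay within the range of the combination libraries, and the change against anti-CD3 alone was -1.06 ± 0.17. Plk1, a kinase active from entry to exit of mitosis, was 43.8, 56.7 and 47.0 FPKM with anti-CD3 alone, 51.3, 53.4 and 48.9 with L. acidophilus, 42.0, 35.9 and 46.6 with FK506 and 23.0, 31.9 and 31.2 with the combination. The combination lay below all other libraries, with a log2 fold change of -0.99 ± 0.15. The remaining called genes were Cdc20 (-0.97), which activates the anaphase-promoting complex, Top2a (-0.90), Birc5 (survivin, -0.80), the checkpoint genes Ttk (-0.74), Bub1 (-0.56) and Mad2l1 (-0.50), and Tpx2 (-0.69), an activator of Aurora A. Mad2l1 was not called without scaling factors (-0.29) or with limma (-0.32 and -0.33), and Bub1 was not called in those fits (-0.35, -0.31 and -0.33), with RLE factors, with the 2 groups alone or with replicates 2 and 3 only (-0.20).

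Mki67, the gene of the proliferation marker Ki-67, was 1 of the 4 genes not called. It was 83.5, 50.3 and 90.2 FPKM with anti-CD3 alone, 113, 93.1 and 108 with L. acidophilus, 110.5, 86.0 and 101 with FK506 and 53.7, 98.9 and 98.2 with the combination, so that 2 of 3 combination libraries lay above all 3 anti-CD3 libraries and library 1 between them. On TMM-scaled CPM, combination libraries 2 and 3 were level with anti-CD3 libraries 1 and 3, at log2 ratios of 0.22 and 0.19 to the anti-CD3 mean against 0.20 and 0.21, and library 1 was the lowest of all. Its log2 fold change of -0.04 ± 0.23 (edgeR adjusted p = 0.911) turned positive under other scalings, 0.16 without scaling factors and 0.0029 with DESeq2. With single libraries left out it ran from -0.25 to 0.18, so its direction was not settled. Anti-CD3 library 2, at 50.3 FPKM, was the lowest of its group for Mki67. Cenpf, a kinetochore protein, was 9.01, 4.87 and 9.27 FPKM with anti-CD3 alone, 12.5, 10.5 and 11.8 with L. acidophilus, 10.9, 8.35 and 9.71 with FK506 and 6.84, 11.2 and 11.2 with the combination. Its change was 0.13 ± 0.23, and its combination libraries 2 and 3 lay within the range of its L. acidophilus libraries in FPKM but below all 3 on TMM-scaled CPM. Cenpe, a kinetochore motor, was 15.6, 9.70 and 17.0 FPKM with anti-CD3 alone, 19.2, 15.2 and 17.2 with L. acidophilus, 17.7, 13.7 and 16.5 with FK506 and 8.16, 15.1 and 15.4 with the combination, with -0.33 ± 0.23 (adjusted p = 0.267). Kif11, the motor that keeps spindle poles apart, was 32.0, 26.5 and 37.1 FPKM with anti-CD3 alone, 45.6, 42.5 and 43.4 with L. acidophilus, 42.4, 34.3 and 43.3 with FK506 and 20.9, 33.3 and 34.1 with the combination, with -0.32 ± 0.17 (adjusted p = 0.141). In all 4 genes combination library 1 was the lowest of its group, and libraries 2 and 3 lay close to each other. Top2a, which shares the CHR and CCAAT letters printed for Mki67, was 158, 116 and 165 FPKM with anti-CD3 alone, 176, 169 and 179 with L. acidophilus, 169, 138 and 183 with FK506 and 69.3, 101 and 101 with the combination, without overlap between the combination and any other group.

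Combination library 1 was the lowest of its group for most genes of every role. In FPKM this held for all 12 licensing and helicase genes, 7 of 8 of nucleotide supply and DNA synthesis, 5 of 5 transcription factors, 6 of 7 cyclins, 3 of 4 CDKs, 2 of 3 CDK inhibitors and 14 of 15 mitosis genes, and the exceptions Pcna, Ccnd3, Cdk4, Cdkn1b and Birc5 were highest there. On TMM-scaled CPM it held for 9 of 12 licensing and helicase genes and 6 of 8 of nucleotide supply and DNA synthesis, with the same counts in the other roles. Relative to the anti-CD3 mean on that scale, the median log2 ratio of the licensing and helicase genes was -1.20, -1.10 and -1.15 in combination libraries 1 to 3, and that of the CDKs was -1.15, -0.99 and -0.96. The median of the CDK inhibitors was 0.96, 1.08 and 1.05. The medians of the remaining 4 roles lay further apart: -1.19, -0.90 and -0.89 for nucleotide supply and DNA synthesis, -1.13, -0.64 and -0.65 for transcription factors, -1.33, -0.77 and -0.77 for cyclins and -0.96, -0.56 and -0.59 for mitosis. No test was made of this difference between roles. Combination library 1 was also the one with the most myeloid marker signal, and the part of that signal was not tested.

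Markers of other cells moved with the treatments, and their part in the results was not tested. The summed level of 18 B-cell markers was highest with FK506, at 412 to 761 FPKM, followed by the combination at 218 to 255, anti-CD3 alone at 62.5 to 121 and L. acidophilus at 47.0 to 65.0. By gene, 17 of the 18 genes rose with FK506 and 12 with the combination, where 10.2% and 21.5% of all genes tested did. The summed level of 13 myeloid markers was 155 to 294 FPKM in the combination libraries, 77.0 to 137 in those of anti-CD3 alone, 70.2 to 106 in those of L. acidophilus and 68.3 to 127 in those of FK506, and most of it was Cst3. Without Cst3 it was 60.7 to 95.9, 1.72 to 2.26, 1.37 to 5.16 and 11.0 to 25.4 FPKM in the same order, highest in combination library 1, a sum chosen after the data were seen. Of the 11 myeloid markers tested, 9 rose with FK506 and 10 with the combination, beside the same shares of all genes. The neutrophil marker S100a8 was listed at 0 in every library, and the macrophage marker Csf1r averaged 0.820 ± 0.109 FPKM with the combination and was listed at 0 in all 3 anti-CD3 libraries. Lyz2, lysozyme, averaged 20.4 ± 8.98 FPKM with the combination. Cd4, the marker of the sorted cells, was present in every group, at 143 ± 5.31 FPKM with anti-CD3 alone and 245 ± 9.56 with the combination, and 10 CD4 T-cell markers summed to 1749 to 2532 and 2271 to 2780 FPKM. Of these 10 markers, 3 rose with the combination (Cd4, Cd3e and Trac) and 2 fell (Cd2 and Themis), beside 21.5% and 21.8% of all genes tested. The median log2 fold change of the 10 markers was -0.12. The 6 CD8 and NK markers summed to 4.04 to 7.90 FPKM with anti-CD3 alone and 4.59 to 8.65 with L. acidophilus. They summed to 8.28 to 16.6 with FK506 and 11.5 to 19.99 with the combination, which overlapped.

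**Figure D3:**
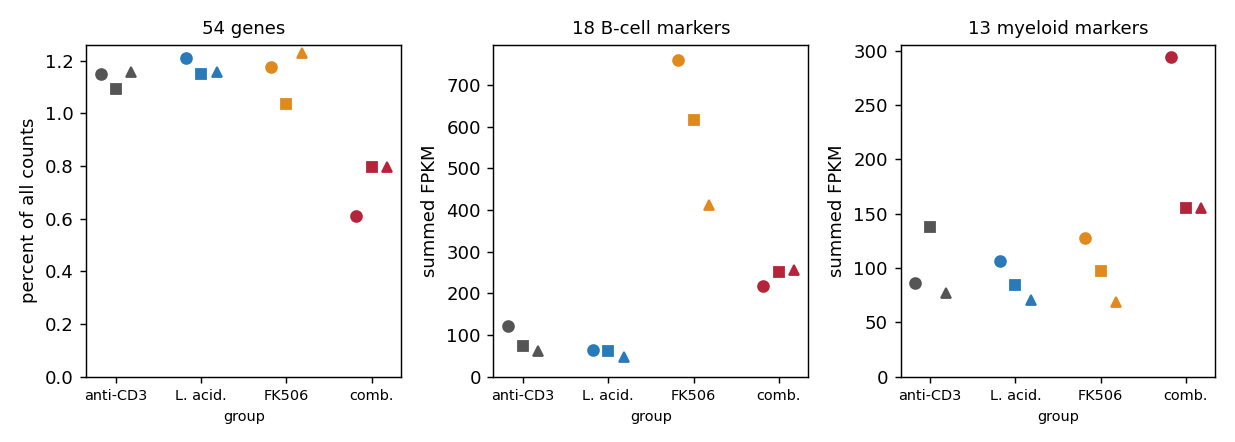
Share of all reads taken by the 54 genes (left, percent) and summed level of 18 B-cell markers and 13 myeloid markers (middle and right, FPKM) in each library by group, with circles, squares and triangles for replicates 1, 2 and 3. The combination libraries are lowest in the left panel (0.610% to 0.798%), the FK506 libraries are highest for B-cell markers (412 to 761 FPKM), and combination replicate 1 is highest for myeloid markers (294 FPKM).

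**Figure D4:**
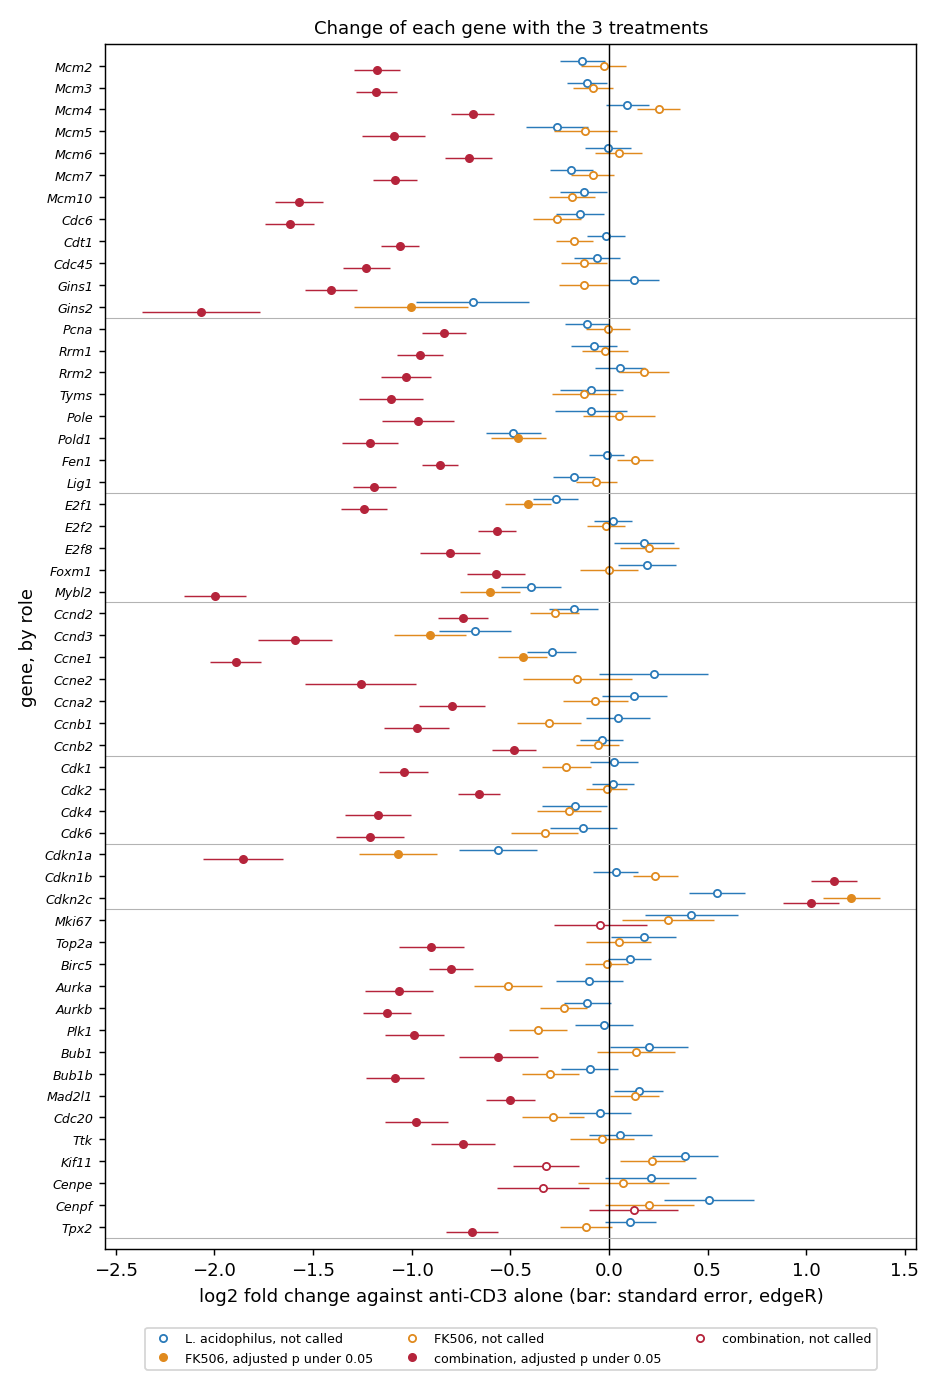
Log2 fold change against anti-CD3 alone (horizontal axis, with standard error bars from edgeR) of each of the 54 genes (vertical axis, by role) with L. acidophilus, FK506 and the combination, filled where the adjusted p was under 0.05. Filled combination points lie left of 0 for 48 genes and right of 0 for Cdkn1b and Cdkn2c, FK506 has 8 filled points and L. acidophilus has none.

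The combination was next set against each single treatment, comparisons that share the same 3 combination libraries and are therefore not independent of the one above. Against FK506, 49 genes were lower and 1 was higher, Cdkn1b, where 19.1% of all genes tested were called, 10.9% as lower and 8.18% as higher. The median log2 fold change was -0.83, and 15 of the genes were at least 2-fold lower and 0 higher, where 3.60% and 3.84% of all genes tested were. All 12 licensing and helicase genes, all 8 of nucleotide supply and DNA synthesis, all 5 transcription factors, all 7 cyclins and all 4 CDKs were lower than with FK506, as were Cdkn1a and 12 of 15 mitosis genes. The largest falls were those of Ccne1 (-1.46 ± 0.13), Mybl2 (-1.39 ± 0.16), Mcm10 (-1.38 ± 0.12) and Cdc6 (-1.35 ± 0.12). Kif11 was just past the threshold (-0.54 ± 0.17, edgeR adjusted p = 0.0414), and it was called in only 5 of 12 leave-one-out fits and lost with RLE factors (adjusted p = 0.0595), without factors (0.115), with limma (0.105 and 0.0998) and with the 2 groups alone (0.0795). Aurka (edgeR adjusted p = 0.0414) was called in 5 of 12 fits too, and was lost under the same settings (adjusted p = 0.0582, 0.0812, 0.0875, 0.0824 and 0.0599) and with the replicate block (0.0605). Foxm1, Ccnd2, Ccnb2 and Bub1 were lost without scaling factors (adjusted p = 0.0572, 0.0743, 0.0701 and 0.0687), and Foxm1, Ccnd2, Bub1 and Tpx2 with limma at one or both pseudocounts. Gins2 and Bub1 were each called in 7 of 12 leave-one-out fits. Mki67 (-0.34 ± 0.24), Cenpe (-0.41 ± 0.23), Cenpf (-0.08 ± 0.23) and Cdkn2c (-0.21 ± 0.14) did not. Leaving out single libraries gave 34 to 50 calls, the lowest without FK506 replicate 3, and 34 of the 50 genes were called in all 12 fits.

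Against L. acidophilus, 49 genes were lower and 2 were higher with the combination, where 33.6% of all genes tested were called, 17.0% as lower and 16.6% as higher. The median log2 fold change was -0.93, and 20 genes were at least 2-fold lower and 1 higher, against 6.64% and 9.93% of all genes tested. The largest falls were those of Mybl2 (-1.60 ± 0.16), Ccne1 (-1.60 ± 0.13), Gins1 (-1.53 ± 0.13) and Ccne2 (-1.48 ± 0.28), and the rises were those of Cdkn1b (1.11 ± 0.12) and Cdkn2c (0.47 ± 0.14), the latter not called in every leave-one-out fit. Mki67 (-0.46 ± 0.24), Cenpe (-0.55 ± 0.23) and Cenpf (-0.38 ± 0.23) were not called. In FPKM, all 3 combination libraries lay below all 3 L. acidophilus libraries for 49 of 54 genes, below the FK506 libraries for 47 and below the anti-CD3 libraries for 45. On TMM-scaled CPM, these were 52, 50 and 47 of 54, where 25.0%, 20.9% and 24.0% of all genes tested did so. Below all 9 other libraries were 47 of 54 genes on that scale, against 14.0% of all genes tested.

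FK506 alone lowered 7 of the genes and raised 1 against anti-CD3 alone, and 8.81% and 10.2% of all genes tested were called in these directions. The balance of directions rested on the method: limma on FPKM, at either pseudocount, called 2 lower and 3 higher. Cdkn1a (-1.07 ± 0.20, edgeR adjusted p = 0.00364), Ccnd3 (-0.91 ± 0.18) and Cdkn2c (1.23 ± 0.14) were called with any single library left out. Gins2 (-1.002 ± 0.29), Mybl2 (-0.60 ± 0.15), Pold1 (-0.46 ± 0.14), Ccne1 (-0.44 ± 0.12) and E2f1 (-0.41 ± 0.12) were not called in every such fit. Each of these also lost its call with limma and with the 2 groups alone. Gins2 had a log2 fold change of -0.41 without anti-CD3 replicate 2. Gins2 and Cdkn1a were at least 2-fold lower and Cdkn2c at least 2-fold higher, sizes that 4.12% and 6.44% of all genes tested reached. Of the 15 mitosis genes 0 were called by edgeR with FK506 (2 at an unadjusted p under 0.05, 1 by DESeq2), and of the 4 CDKs 0 (0 and 0). Their log2 fold changes ran from -0.51 (Aurka) to 0.30 (Mki67), and from -0.33 (Cdk6) to -0.01 (Cdk2). The count fell to 5 without anti-CD3 replicate 1, 4 without anti-CD3 replicate 2, 4 without FK506 replicate 1 and 3 without FK506 replicate 2.

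Whether the combination differed from the sum of the single treatments was tested as an interaction, the log2 fold change of the combination minus those of L. acidophilus and FK506. For 27 of the 54 genes the combination was lower than the sum and for 1, Cdkn1b, it was higher, where 4.35% of all genes tested were called, 3.00% as lower and 1.35% as higher. The median departure was -0.78 on the log2 scale, and 11 genes were at least 2-fold below the sum and 0 above, against 1.42% and 0.954% of all genes tested. These tests use the same control and combination libraries as the comparisons above. By role, 10 of 12 licensing and helicase genes, 6 of 8 of nucleotide supply and DNA synthesis, 3 of 5 transcription factors, 1 of 7 cyclins, 2 of 4 CDKs and 5 of 15 mitosis genes were called as lower. DESeq2 called 40 of the 54 genes, with 3 of 7 cyclins and 9 of 15 mitosis genes, and 2379 of all genes tested against 1025 by edgeR, and the replicate block also called 3 cyclins. Gins1 had the largest departure among the called genes, -1.41 ± 0.18 (edgeR adjusted p = 0.00447), with single effects of 0.13 for L. acidophilus and -0.13 for FK506. Rrm2 (-1.26 ± 0.18), Mcm10 (-1.26 ± 0.17) and Cdc6 (-1.21 ± 0.17) followed. Ccnd3 was at -0.00 ± 0.26 and was not called, and with single libraries left out it ran from -0.20 to 0.19. Cdkn1a was at -0.23 ± 0.28 (adjusted p = 0.729). With any single library left out, 15 of the 28 genes were called every time. The count fell to 15 without L. acidophilus replicate 2, to 17 without L. acidophilus replicate 3 and to 17 without FK506 replicate 3, and it was 8 with replicates 2 and 3 only.

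Other genes of the same processes were read in the same fit from lists of known function, without a test of the lists. Of 47 other replication genes, 40 were lower and 1 was higher with the combination against anti-CD3 alone, where 21.8% and 21.5% of all genes tested were. The median log2 fold change of the 47 genes was -0.92. The origin recognition subunit Orc1 (-1.77), the polymerase delta subunit Pold2 (-1.60) and the maintenance methylation factor Uhrf1 (-1.57) fell the most, and Dck (0.50), deoxycytidine kinase, rose. Of 54 other mitosis genes, 40 were lower and 1 was higher, beside the same shares of all genes tested, with a median of -0.57. Cks1b (-1.48), a CDK subunit, Pkmyt1 (-1.15), an inhibitory kinase of Cdk1, and the centromere gene Cenpm (-1.12) fell, and the condensin subunit Smc4 (0.71) rose. Of 14 Rb, E2F and DREAM genes, 4 were lower and 3 higher, a share near the 43.3% called over all genes tested. Tfdp1 (-1.40), the partner of E2F proteins, and E2f4 (-0.93) fell, while the pocket protein genes Rbl2 (0.81) and Rb1 (0.59) rose. Of 14 other cyclin, CDK and inhibitor genes, 5 were lower and 1 higher, a share near the 43.3% called over all genes in this fit, and the total of 6 was 8 with DESeq2 and 10 with the replicate block. The CDK inhibitor Cdkn2b rose from 0.331 ± 0.138 to 5.85 ± 0.566 FPKM, and Cdkn2d (-1.48), another inhibitor of Cdk4 and Cdk6, fell.

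Of 10 genes of resting T cells, 6 were higher with the combination, where 21.5% of all genes tested were, and Klf2 and S1pr1 were highest in its library 1. The transcription factor Klf2 was 1.81 ± 1.14 FPKM with anti-CD3 alone and 44.0 ± 25.6 with the combination, and its target S1pr1, a receptor for exit from lymph nodes, was 3.73 ± 0.629 and 37.4 ± 19.9. Tcf7 (1.77) and the antiproliferative gene Btg1 (1.73) also rose. Of the 10 genes, 5 were higher with FK506 alone, where 10.2% of all genes tested were. Of 15 p53 target genes, 4 were higher, led by Trp53inp1 (2.40) and Sesn1 (1.76), and 6 were lower, led by Aen (-1.06) and Bax (-1.02), beside 21.5% and 21.8% of all genes tested. Cdkn1a, the p53 target among the 54 genes, was on the falling side.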

How the data were processed

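RNA-seq libraries of 12 samples (4 groups of 3, grouped by the treatment in the labels) were analysed. The authors deposited 1 table of 45777 genes holding, for each library, whole-number read counts, FPKM and TPM values. The counts were deposited without normalization, the FPKM values were scaled by the authors to transcript length and library size, and the 12 columns of deposited TPM values were not used. The submitters' processing notes name bcl2fastq 2.20.0, Trimmomatic, HISAT2 2.1.0, StringTie 2.1.3b and the mm10/GRCm38 genome, so counts may be rounded estimates. The quantile normalization named in the study's methods was not visible in the FPKM totals, which differed between libraries.

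Genes above 0 counts in at least 3 of 12 libraries (23585) were tested in R 4.3.3 with edgeR 4.0.16 (TMM factors, glmQLFit and glmQLFTest, 1 mean per group, all 12 libraries), and p-values were adjusted over all of them by Benjamini-Hochberg. A gene was called at an adjusted p under 0.05. The standard error was taken as |log2 fold change|/√F. An exact permutation test (two-sided) of 3 against 3 has a smallest p of 0.1. In simulated counts for the combination against anti-CD3, 58 of 100 genes changed 2-fold and 92 of 100 changed 4-fold were recovered among 23265 genes, and for the interaction 28 of 100 and 74 of 100 among 23232 genes.

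Levels are FPKM. Every one of the 54 genes is accounted for in its role: per-library FPKM is given for up to 4 called genes a role, by size of change, and for genes against their role's direction, and Mcm3, Top2a, Mki67, Kif11 and Cenpe were added after their values were seen. The 54 genes and the lists were chosen with earlier results of these data known. Alternatives were limma 3.58.1 on log2(FPKM + 1) and log2(FPKM + 0.1), DESeq2 1.42.0, other scalings and filters, the 2 groups alone, the replicate number as a block, a 2-fold threshold and each library left out. Plots used matplotlib 3.10.9 (Python 3.11.15).

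Replicate numbers were checked for pairing by the correlation of same-numbered libraries' deviations from their group means over 13369 genes. Every pair was over 0.1 for L. acidophilus against anti-CD3 (0.523, 0.357 and 0.290) and for the combination against L. acidophilus (0.223, 0.192 and 0.166), and the lowest pair was under 0.1 in the other comparisons. The pairing rests on the numbers in the labels.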

Additional observations from a re-analysis of the deposited data

Results flagged for a closer look

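For 28 of the 54 genes the effect of L. acidophilus differed between cells with and without FK506, by the test of the interaction term in edgeR. Each value is the combination's log2 fold change minus those of both agents alone. Among licensing and helicase genes it was -1.01 for Mcm2, -0.99 for Mcm3, -1.04 for Mcm4, -0.76 for Mcm6, -0.81 for Mcm7, -1.26 for Mcm10, -1.21 for Cdc6, -0.87 for Cdt1, -1.04 for Cdc45 and -1.41 for Gins1. Among genes of nucleotide supply and DNA synthesis it was -0.72 for Pcna, -0.86 for Rrm1, -1.26 for Rrm2, -0.89 for Tyms, -0.98 for Fen1 and -0.95 for Lig1. Among transcription factors it was -0.58 for E2f2, -1.19 for E2f8 and -1.001 for Mybl2. Cyclin E1 had -1.17, Cdk1 -0.85 and Cdk2 -0.67. Cdkn1b was the 1 gene with a departure upwards, 0.87. Among mitosis genes it was -1.13 for Top2a, -0.89 for Birc5, -0.79 for Aurkb, -0.78 for Mad2l1 and -0.93 for Kif11.

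Of these 28 genes, 15 were called with any single library left out, and 13 were not. Tyms (adjusted p = 0.0496) and Kif11 (adjusted p = 0.0486) were the closest to the threshold. All 28 departures include the 3 combination libraries, of which replicate 1 was the lowest for most of the genes.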

How the results depend on the processing

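The counts of called genes against anti-CD3, L. acidophilus and FK506 kept within 1.5 times of the main count under other scalings, filters, DESeq2 and limma, with the exceptions given here. For L. acidophilus against anti-CD3, DESeq2 called 3, and leave-one-out fits 0 to 2 (2 without anti-CD3 replicate 3). For FK506 against anti-CD3, 5 were called without scaling factors, 5 with limma at either pseudocount (2 lower and 3 higher), 3 with the 2 groups alone, 4 with replicates 2 and 3 only and 3 at 2-fold, and leave-one-out fits gave 3 to 9. At 2-fold, 28 were called in the combination against anti-CD3, 21 against L. acidophilus, 15 against FK506 and 11 for the interaction. Leave-one-out fits gave 49 to 50, 50 to 51, 34 to 50 and 15 to 34, and replicates 2 and 3 only gave 8 for the interaction.

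Mki67, not called, changed sign in the combination against anti-CD3: 0.0029 with RLE size factors and DESeq2, 0.16 without scaling factors, 0.15 with limma at either pseudocount, and 0.30 with replicates 2 and 3 only. Left out singly, anti-CD3 replicate 1 gave 0.07, anti-CD3 replicate 3 0.07 and combination replicate 1 0.18 (range -0.25 to 0.18). Cenpf ran from -0.11 (without anti-CD3 replicate 2) to 0.31 in that comparison with single libraries left out. Against FK506 it changed to 0.024 without scaling factors, 0.0084 without FK506 replicate 1, 0.10 without combination replicate 1 (range -0.19 to 0.10) and 0.19 with replicates 2 and 3 only. The cause was not tested. Among the single genes' values, 10 of 1188 reversed in the first comparison and 4 of 1188 in the second.

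Without scaling factors the share of higher calls among all genes rose from 53.7% to 65.7% for FK506, and for the combination from 49.7% to 62.9%, 49.4% to 60.5% and 42.8% to 54.5% against anti-CD3, L. acidophilus and FK506. With the replicate block the counts were 0 and 9 for the single treatments, 50, 51 and 49 for the combination, and 32 for the interaction. The block gained Ccnd2 with FK506, and Pole, Ccne2, Ccna2 and Cdk6 for the interaction, and lost Aurka against FK506. Every gene had at least 380 reads per library, and the effect of depth was not tested.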
